A study of Mus musculus with 6 samples.

Results

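The genes described here encode 9 enzymes of serine synthesis and folate-dependent one-carbon metabolism: Phgdh, Psat1 and Psph, which make serine, Shmt2, Mthfd2, Mthfd1l and Aldh1l2, the mitochondrial branch of the folate pathway, and Shmt1 and Mthfd1, its cytosolic branch. The set was chosen from earlier results of the same hearts, in which members such as Mthfd2 were already known to be higher in the mutant, so the values of the members in mutant against control hearts are given as a description and no test is read from them. Members were taken by gene symbol after the transcript rows of each gene had been summed, and all 9 were found among the 26191 genes of the table. All 9 also passed the filter on low values, which asked for 1 FPKM or more in no fewer than 3 of the 6 libraries, as did 13260 genes in all.

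Mrps5 encodes a protein of the small subunit of the mitochondrial ribosome. Whole mouse hearts were taken at embryonic day 12 from control embryos of the genotype Mrps5 fl/fl (n = 3 libraries) and from mutant embryos of the genotype Mrps5 fl/fl; cTNT-Cre (n = 3 libraries). Both groups therefore carried floxed Mrps5 alleles, and the control embryos, which were littermates, lacked the Cre transgene. Each library came from a pool of hearts. The cardiac troponin T promoter drives Cre in cardiomyocytes, so endothelial, epicardial, mesenchymal and blood cells of a mutant heart should keep the gene. Loss of the gene by cell type was not measured in these libraries.

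Values are FPKM, fragment counts scaled by transcript length and library size, which can be compared between genes. The number of reads behind them is unknown. Differences are given on the log2(FPKM + 1) scale, mutant minus control, with the standard error of the limma fit, and this scale understates the change of a gene with low FPKM. As a check of the deletion, Mrps5 was at 9.65, 11.4 and 10.4 FPKM in control replicates 1, 2 and 3 whereas mutant replicates 1 and 2 had 5.28 and 7.41 FPKM. The library labelled mutant replicate 3 had 10.4 FPKM, within the control range. The member differences are therefore given with and without that library.

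The cellular makeup of the libraries also varied. The 8 cardiomyocyte marker genes summed to between 1.46% and 1.73% of library FPKM in controls and between 1.06% and 1.38% in mutants, and all 8 were lower in mutants on average, 5 of them at an unadjusted p under 0.05, where 9.43% of all genes tested were lower, and 0 after adjustment (limma). The 10 erythroid markers made up 10.8% to 23.5% of library FPKM, with mutant replicates 1 and 3 at 23.5% and 21.9%, and mutant replicate 2 at 10.8%, below every control. Of these 10 genes 9 were higher in mutants on average, 4 of them at an unadjusted p under 0.05, where 5.57% of all genes were higher, and 0 after adjustment. The summed endothelial, epicardial, mesenchymal, macrophage, liver and dividing-cell markers overlapped between the groups, and none of these genes was listed at 0 in a library. In whole hearts, a change in the number of cells of a type cannot be told apart from a change in the RNA that each cell holds, and the part of cell makeup in the member values was not tested.

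Cells make serine from the glycolytic intermediate 3-phosphoglycerate in 3 successive reactions, catalysed by the products of Phgdh, Psat1 and Psph. A serine hydroxymethyltransferase then passes a carbon from serine to tetrahydrofolate, leaving glycine. This reaction takes place in the cytosol through Shmt1 and in mitochondria through Shmt2. In mitochondria Mthfd2 oxidises the folate-bound carbon, Mthfd1l releases it as formate and Aldh1l2 oxidises it to carbon dioxide with formation of NADPH. In the cytosol the single protein encoded by Mthfd1 carries the corresponding dehydrogenase, cyclohydrolase and formate-activating steps. The folate-bound carbon is used to build purines and thymidylate, to remethylate homocysteine and to formylate the initiator methionine of mitochondrial translation, which links the mitochondrial branch to the mitochondrial ribosome.

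The upstream sequences of the enzymes are shown because enzymes of both folate branches and of serine synthesis can be compared by the letters that precede their start sites. The 250 bases before the annotated transcription start were read from RefSeq (GRCm38.p6) for 8 of the 9 members, all but Aldh1l2. Psat1 has 2 starts and hence 2 windows. Windows were searched on both strands for CCAAT (the CCAAT box), TGACGT (the core of the cyclic AMP response element), TGATGNAA (the C/EBP-ATF element) and CACGTG (an E-box), none of whose matches overlapped another, and matches are in capitals. A match to CCAAT on the other strand reads ATTGG. The windows are Phgdh at chr3:98339970-98340219 (minus strand), Psat1, the upstream start, at chr19:15925060-15925309 (minus strand), Mthfd2 at chr6:83317605-83317854 (minus strand), Mthfd1l at chr10:3972825-3973074 (plus strand) and Shmt1 at chr11:60811266-60811515 (minus strand), each printed 5′ to 3′ in the direction of transcription.
Phgdh: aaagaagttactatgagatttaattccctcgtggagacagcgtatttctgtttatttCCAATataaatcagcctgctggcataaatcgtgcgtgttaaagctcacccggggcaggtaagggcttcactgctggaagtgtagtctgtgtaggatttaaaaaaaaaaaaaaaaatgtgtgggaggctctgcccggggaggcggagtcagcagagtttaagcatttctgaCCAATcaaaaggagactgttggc
Psat1: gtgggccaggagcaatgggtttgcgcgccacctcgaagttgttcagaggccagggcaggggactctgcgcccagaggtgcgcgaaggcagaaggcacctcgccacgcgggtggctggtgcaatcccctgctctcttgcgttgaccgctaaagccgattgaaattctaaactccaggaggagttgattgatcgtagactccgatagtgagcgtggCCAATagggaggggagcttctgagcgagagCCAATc
Mthfd2: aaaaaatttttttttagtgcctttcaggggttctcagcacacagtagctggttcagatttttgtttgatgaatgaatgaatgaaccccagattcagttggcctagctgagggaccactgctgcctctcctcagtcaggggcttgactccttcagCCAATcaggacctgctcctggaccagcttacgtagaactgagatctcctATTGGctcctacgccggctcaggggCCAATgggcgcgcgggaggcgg
Mthfd1l: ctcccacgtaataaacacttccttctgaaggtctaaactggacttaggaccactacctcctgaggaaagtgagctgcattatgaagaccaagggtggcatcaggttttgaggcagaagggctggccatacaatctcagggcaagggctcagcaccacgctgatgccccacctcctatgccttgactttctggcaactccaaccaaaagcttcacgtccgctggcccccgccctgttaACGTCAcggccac
Shmt1: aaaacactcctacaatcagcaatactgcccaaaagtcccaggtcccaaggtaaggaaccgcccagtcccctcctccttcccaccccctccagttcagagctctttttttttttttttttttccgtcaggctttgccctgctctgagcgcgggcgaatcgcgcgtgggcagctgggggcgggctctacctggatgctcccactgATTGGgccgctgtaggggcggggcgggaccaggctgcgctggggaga

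The Mthfd2 window holds 3 CCAAT boxes, starting at -96, -47 and -22 relative to the transcription start, the Phgdh window 2, at -193 and -23, and the upstream Psat1 window 2, at -36 and -6. The Shmt1 window holds 1, at -47, and Mthfd1, the other cytosolic member, has 1 at -69. The Psph window holds 2, at -78 and -48, and the Shmt2, Mthfd1l and downstream Psat1 windows hold none. CCAAT was thus found in 6 of the 9 member windows, against 33.9% of all 32851 windows in the table. Among mitochondrial members with a window only Mthfd2 had it, whereas both cytosolic members did. The Shmt2 window had no match to any of the searched sequences. TGACGT was found in 1 of 9, that of Mthfd1l at -13 on the other strand as ACGTCA, against 6.47% of all windows. Neither TGATGNAA nor CACGTG was found in any of the 9 member windows, against 3.45% and 6.02% of all. These are matches of letters in a short window and were not measured as binding.

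In control hearts the members spanned a narrow range of levels. Shmt2 had the highest mean at 22.2 ± 5.13 FPKM (SD, n = 3), followed by Phgdh at 20.9 ± 3.21, Psat1 at 20.2 ± 1.34, Mthfd1 at 17.5 ± 1.98 and Mthfd2 at 14.0 ± 1.55, and the library values of neighbours in this order overlapped. Mthfd1l at 10.9 ± 1.03, Shmt1 at 8.62 and Psph at 6.16 ± 1.05 FPKM followed, each below the one before in all 3 control libraries and without overlap. Aldh1l2 was lowest on average at 4.55 ± 0.812 FPKM and overlapped Psph. In mutant hearts the order was Phgdh, Shmt2, Mthfd2, Psat1, Mthfd1, Psph, Aldh1l2, Mthfd1l and Shmt1, and only the steps from Psat1 to Mthfd1 and from Mthfd1l to Shmt1 were free of overlap. Mthfd2 moved from the fifth place to the third and Mthfd1l from the sixth to the eighth.

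**Figure D1:**
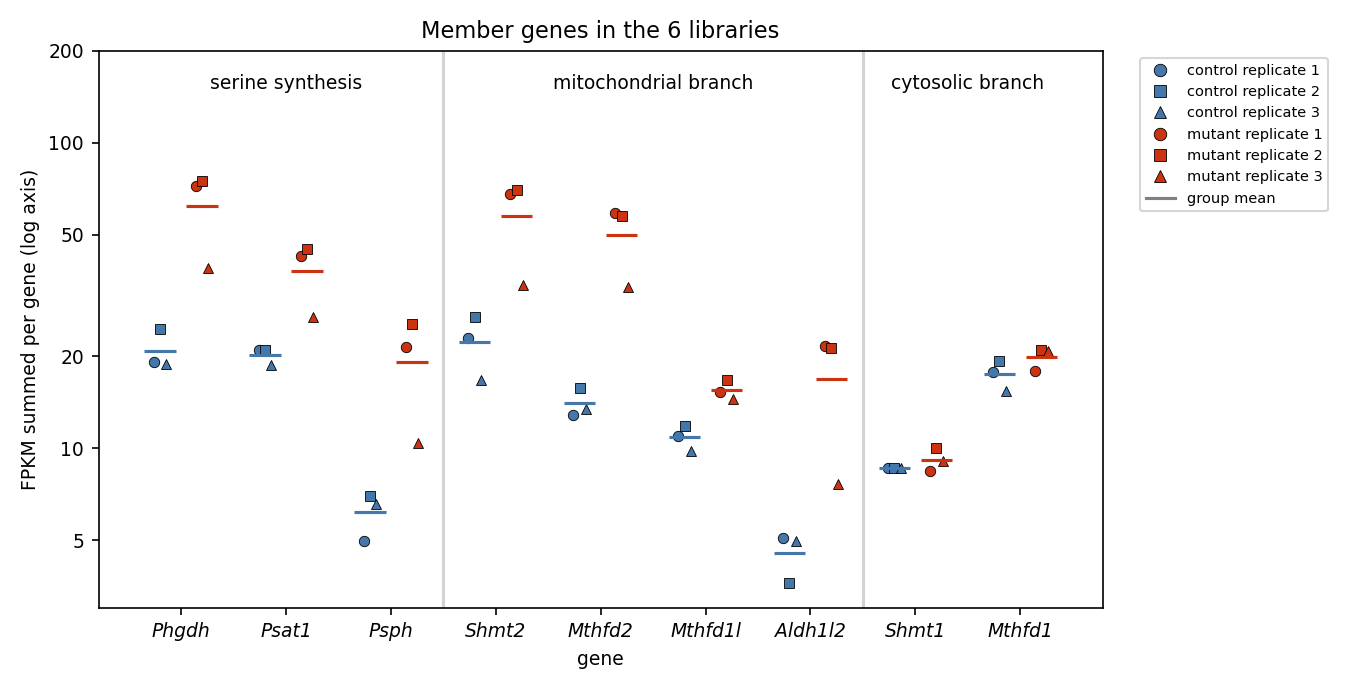
FPKM summed per gene (log axis) for the 9 enzymes in each library, with controls in blue, mutants in red, a marker shape per replicate number and a horizontal line at each group mean. The mutant libraries lie above all controls for the 7 genes of serine synthesis and the mitochondrial branch, with mutant replicate 3 the lowest mutant library in each, while Shmt1 and Mthfd1 overlap between the groups.

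The 3 genes of serine synthesis were all higher in mutant hearts. Phgdh, which encodes the dehydrogenase that commits 3-phosphoglycerate to serine, was at 19.2, 24.6 and 18.9 FPKM in the control libraries and at 72.2, 75.1 and 39.0 FPKM in the mutant libraries. Even the lowest mutant library, replicate 3, was above the highest control. The group means were 20.9 ± 3.21 and 62.1 ± 20.0 FPKM (SD, n = 3 each), a 2.98-fold difference, or 1.48 on the log2 scale (standard error 0.24, 95% interval 0.94 to 2.02). Without the library labelled mutant replicate 3 the difference was 3.53-fold.

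Psat1, the aminotransferase of the next step, was at 21.0, 21.0 and 18.7 FPKM in controls and at 42.7, 44.8 and 26.8 FPKM in mutants. The groups did not overlap, and the mutant mean was 1.88-fold the control mean, a log2 difference of 0.85 (standard error 0.18, 95% interval 0.44 to 1.26). This was the smallest difference of the 3 serine synthesis genes. Psph, the phosphatase that releases free serine, was the least abundant of the 3, at 4.98, 6.97 and 6.54 FPKM in controls and 21.5, 25.5 and 10.4 FPKM in mutants. All 3 mutant libraries were above the controls, and its mutant mean was 3.10-fold the control mean, a log2 difference of 1.41 (standard error 0.29, 95% interval 0.76 to 2.07). The fold differences without mutant replicate 3 were 2.16 for Psat1 and 3.81 for Psph.

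The 4 genes of the mitochondrial branch were also all higher in mutant hearts, by unequal amounts. Shmt2, which takes the carbon from serine inside mitochondria, was at 23.0, 26.9 and 16.8 FPKM in controls and at 67.8, 69.9 and 34.3 FPKM in mutants. The groups did not overlap, although the highest control and the lowest mutant library lay close together. The means of 22.2 ± 5.13 and 57.3 ± 20.0 FPKM (SD, n = 3 each) gave a 2.58-fold difference and a log2 difference of 1.28 (standard error 0.27, 95% interval 0.66 to 1.91). Without mutant replicate 3 the difference was 3.10-fold.

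Mthfd2, the methylene-tetrahydrofolate dehydrogenase and cyclohydrolase best known from embryos and dividing cells, had the largest log2 difference of the 9 genes with all libraries, and the second after Aldh1l2 without mutant replicate 3 (1.98 against 2.03). It was at 12.9, 15.8 and 13.4 FPKM in controls and at 58.6, 57.6 and 33.8 FPKM in mutants. Every mutant library was well above every control, and the library labelled mutant replicate 3 alone was 2.41-fold the control mean. The means were 14.0 ± 1.55 and 50.0 ± 14.1 FPKM (SD, n = 3 each), a 3.57-fold difference, or 1.73 on the log2 scale (standard error 0.20, 95% interval 1.27 to 2.19), and 4.15-fold without mutant replicate 3. Of the 13260 genes compared, 16 had a larger log2 difference.

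Aldh1l2, which burns formyl groups to carbon dioxide, was on average the scarcest of the 9 in controls, at 5.08, 3.61 and 4.95 FPKM. It reached 21.7, 21.2 and 7.64 FPKM in mutants. By ratio of means it differed most of the 9 genes, at 3.70-fold, and its log2 difference of 1.57 (standard error 0.34, 95% interval 0.79 to 2.35) ranked second. It also varied most among the mutant libraries, since replicate 3 was at 35.6% of the mean of replicates 1 and 2. Mthfd1l, the formate-releasing enzyme, differed least within the branch. It was at 11.0, 11.8 and 9.79 FPKM in controls and at 15.3, 16.7 and 14.5 FPKM in mutants. The groups did not overlap, and the 3 mutant libraries were alike, with a 1.43-fold difference of means and a log2 difference of 0.48 (standard error 0.10, 95% interval 0.25 to 0.70). Without mutant replicate 3 the fold differences were 4.72 for Aldh1l2 and 1.47 for Mthfd1l.

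**Figure D2:**
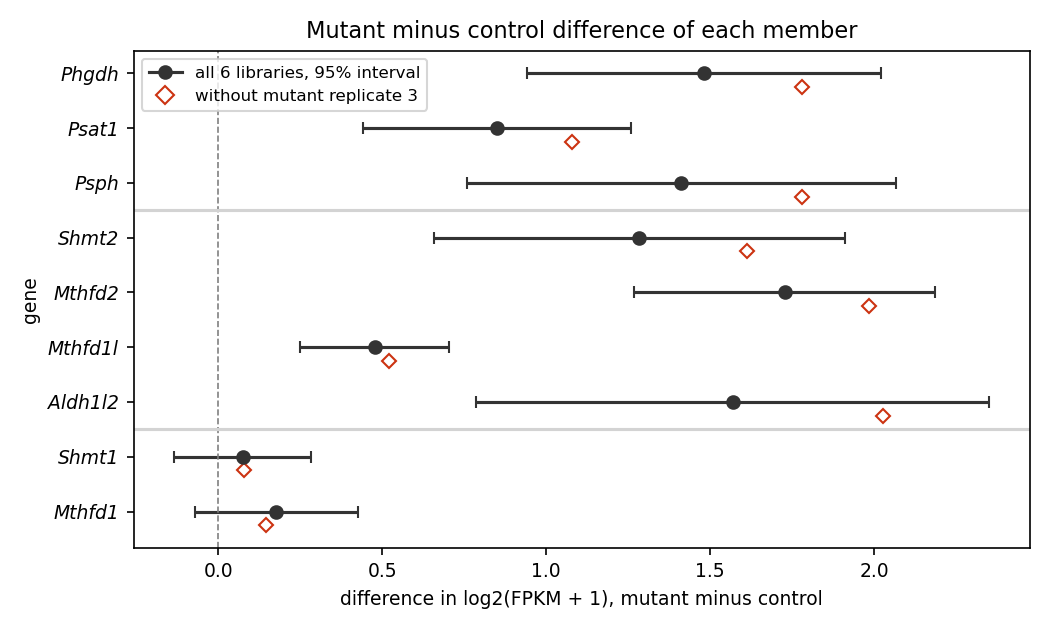
Mutant minus control difference in log2(FPKM + 1) for each enzyme, with black points and 95% intervals from all 6 libraries and open diamonds for the value without the library labelled mutant replicate 3. Differences run from 0.85 to 1.48 for serine synthesis and from 0.48 to 1.73 for the mitochondrial branch, and are 0.07 for Shmt1 and 0.18 for Mthfd1. Since the members were chosen on this contrast, the intervals are a description and no test is read from them.

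The cytosolic enzymes differed little. Shmt1, which carries out in the cytosol the reaction of Shmt2, was at 8.62 FPKM in each of the 3 control libraries and at 8.39, 10.0 and 9.08 FPKM in mutants. Mutant replicate 1 was below the controls and replicates 2 and 3 were above them, so the groups overlapped. The log2 difference was 0.07 (standard error 0.09, 95% interval -0.13 to 0.28). Mthfd1 was at 17.7, 19.3 and 15.4 FPKM in controls and at 17.9, 20.9 and 20.8 FPKM in mutants. These ranges overlapped as well, with a log2 difference of 0.18 (standard error 0.11, 95% interval -0.07 to 0.43). Without mutant replicate 3 the differences were 0.079 for Shmt1 and 0.14 for Mthfd1.

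At an unadjusted p under 0.05, 7 of the 9 members were higher in mutants (3 of 3 in serine synthesis, 4 of 4 in the mitochondrial branch and 0 of 2 in the cytosolic branch) and 0 were lower, where 5.57% of all genes tested were higher and 9.43% lower. The same 7 genes had no overlap between the groups with the mutant higher, where 7.74% of all genes did, and 13.0% of all genes had no overlap with the mutant lower. After adjustment over all genes 1 member, Mthfd2, was under 0.05, where 0.083% of all genes were. Mthfd2 was already known to be higher in these hearts when the set was chosen, so nothing is read from its passing. With erythroid genes left out of the scaling, 47.7% of all genes called at the unadjusted threshold were higher in mutants, against 37.1% as deposited. Since the members were chosen on this contrast, these counts are a description. The median log2 difference was 1.41 for serine synthesis, 1.43 for the mitochondrial branch and 0.13 for the cytosolic branch, beside -0.02 over all genes tested.

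The balance between the branches was then followed within each library, which removes any factor common to all genes of a library apart from the added 1. The mean log2(FPKM + 1) of the 4 mitochondrial genes minus that of the 2 cytosolic genes was -0.10, -0.12 and -0.15 in the control libraries. In the mutant libraries it was 1.40, 1.20 and 0.44. The controls were thus tightly grouped just below 0 and each mutant library was above 0, with replicate 3 nearest the controls. The group means of -0.12 ± 0.02 and 1.01 ± 0.51 (SD, n = 3 each) differed by 1.14, and by 1.42 without mutant replicate 3.

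The 9 genes together summed to 123, 139 and 113 FPKM in controls and to 326, 342 and 196 FPKM in mutants. Of this sum the cytosolic pair made up 21.3%, 20.2% and 21.3% in controls, and 8.05%, 9.05% and 15.2% in mutants. The share of the mitochondrial branch was 42.1%, 42.0% and 39.7% in controls and 50.1%, 48.4% and 46.0% in mutants, also without overlap. The share of serine synthesis, by contrast, overlapped between the groups, with a mean of 37.8% ± 1.20 in controls and 41.1% ± 1.97 in mutants (SD, n = 3 each).

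Ratios between enzymes that do the same chemistry in different compartments showed the same division gene by gene. Shmt2 exceeded Shmt1 in every library, by 2.67-fold, 3.12-fold and 1.95-fold in controls and by 8.08-fold, 6.99-fold and 3.78-fold in mutants. Mthfd2 was below Mthfd1 in every control, with ratios of 0.727, 0.815 and 0.871, and above it in every mutant, with ratios of 3.28, 2.75 and 1.62. The order in controls depends on the rows counted, since Mthfd2-201 and Mthfd1-201, the main transcript rows of these genes, were at 12.2 and 11.0 FPKM in control replicate 1, 14.9 and 14.7 in replicate 2 and 13.3 and 14.3 in replicate 3. Mthfd1l stayed below Mthfd1 in all 6 libraries, at ratios of 0.620, 0.612 and 0.635 in controls and 0.857, 0.797 and 0.696 in mutants.

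The enzymes of the mitochondrial branch also shifted against each other. Mthfd2, which makes formyl-tetrahydrofolate, and Mthfd1l, which consumes it to release formate, stood at ratios of 1.17, 1.33 and 1.37 in controls and of 3.83, 3.46 and 2.33 in mutants. The ratio of Aldh1l2 to Mthfd1l, the alternative fates of the same folate, was 0.464, 0.305 and 0.506 in controls and 1.41, 1.27 and 0.528 in mutants. Transcripts for Aldh1l2 thus exceeded those for Mthfd1l in mutant replicates 1 and 2 only, and in mutant replicate 3 the ratio was just above the highest control. Mthfd2l, a mitochondrial isozyme of Mthfd2 that was singled out after its values were seen, was at 10.5 ± 0.611 FPKM in controls and 9.94 ± 0.915 FPKM in mutants (SD, n = 3 each), a log2 difference of -0.07 (standard error 0.10, 95% interval -0.29 to 0.15, adjusted p = 0.781 from limma). The ratio of Mthfd2 to Mthfd2l was 1.27, 1.56 and 1.20 in controls and 5.81, 5.35 and 3.77 in mutants.

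**Figure D3:**
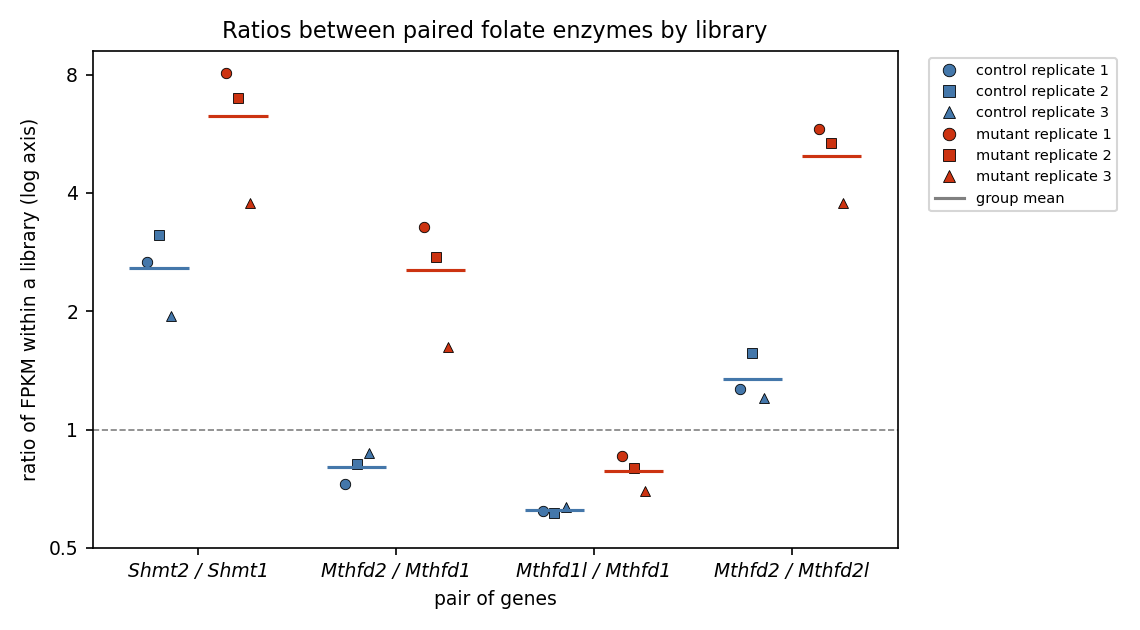
Ratio of FPKM within each library (log axis, dashed line at equal levels) for 4 pairs of folate enzymes, with controls in blue, mutants in red and lines at the group means. With all transcript rows of a gene summed, the ratio of Mthfd2 to Mthfd1 lies between 0.727 and 0.871 in controls and between 1.62 and 3.28 in mutants, whereas Mthfd1l remains below Mthfd1 throughout.

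The mutant libraries differed among themselves more for some genes than for others. In mutant replicate 3, FPKM as a percentage of the mean of replicates 1 and 2 was 53.0% for Phgdh, 61.3% for Psat1, 44.1% for Psph, 49.9% for Shmt2, 58.1% for Mthfd2 and 35.6% for Aldh1l2. It was 90.4% for Mthfd1l, 98.8% for Shmt1 and 107% for Mthfd1. Replicate 3 was the lowest mutant library for all 7 members whose groups did not overlap, and for 430 of the 1026 genes (41.9%) that were above the controls in every mutant library. It was also the library with Mrps5 at the control level and with erythroid markers at 21.9% of FPKM. Replicate 1, with erythroid markers at 23.5%, and replicate 2, with 10.8%, were close to each other in all 7 genes, with the widest gap in Psph at 21.5 and 25.5 FPKM. Leaving erythroid genes out of the scaling moved the median of the 9 log2 differences from 1.28 to 1.31. Whether the Mrps5 level or the blood content of a library has a part in its member values was not tested.

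Across the 6 libraries the log2 values of the 7 genes moved together. Pearson's r between pairs of them ranged from 0.854 (Mthfd1l and Aldh1l2) to 0.993 (Phgdh and Mthfd2). The r of Shmt1 with these 7 genes was between 0.441 and 0.584, and that of Mthfd1 between 0.339 and 0.765. These values are over libraries that fall into separate groups, so they mostly restate the group difference and are given without a test.

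The table lists several transcripts per gene, and for most members a single row carried the signal. The main row held 99.9% of Phgdh, 96.0% of Mthfd2, 99.9% of Aldh1l2 and all of Shmt1 in controls. Psph was different. Its full-length row, Psph-201, with 1733 bases, 8 exons and 675 coding bases in GENCODE release M21, was at 4.21, 5.20 and 2.73 FPKM in controls and at 9.93, 10.4 and 4.79 FPKM in mutants. Mutant replicate 3 was below control replicate 2, so this row overlapped between the groups, with a log2 difference of 0.86. The shorter Psph-202, with 785 bases, 4 exons and 303 coding bases, starts 8276 bases downstream of the full-length start. It was at 0.389, 1.20 and 2.97 FPKM in controls and at 10.8, 14.5 and 4.90 FPKM in mutants, without overlap, and its share of the gene's FPKM was 24.7% in controls and 52.6% in mutants. The division of reads between rows that share exons is an estimate of the software that made the table.

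Both expressed rows of Shmt2 were higher in mutants without overlap. Shmt2-201 averaged 19.9 ± 5.11 and 49.0 ± 17.8 FPKM (SD, n = 3 each) in control and mutant hearts, and Shmt2-206, which has 1503 coding bases against 1512, averaged 2.36 ± 1.01 and 8.33 ± 2.51 FPKM. The difference of Mthfd1l lay in Mthfd1l-201, at 6.88 ± 0.570 and 10.9 ± 0.658 FPKM, whereas Mthfd1l-202, with the same coding length of 2931 bases, overlapped at 3.84 ± 0.574 and 4.48 ± 0.439 FPKM. The small mean difference of Mthfd1 came from Mthfd1-206, which was at 4.04, 2.24 and 0 FPKM in controls and at 3.74, 5.78 and 5.99 FPKM in mutants. The main row, Mthfd1-201, was at 13.3 ± 2.05 FPKM in controls and 12.8 ± 0.654 FPKM in mutants (SD, n = 3 each), a log2 difference of -0.05, so the direction of Mthfd1 depends on which rows are counted.

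**Figure D4:**
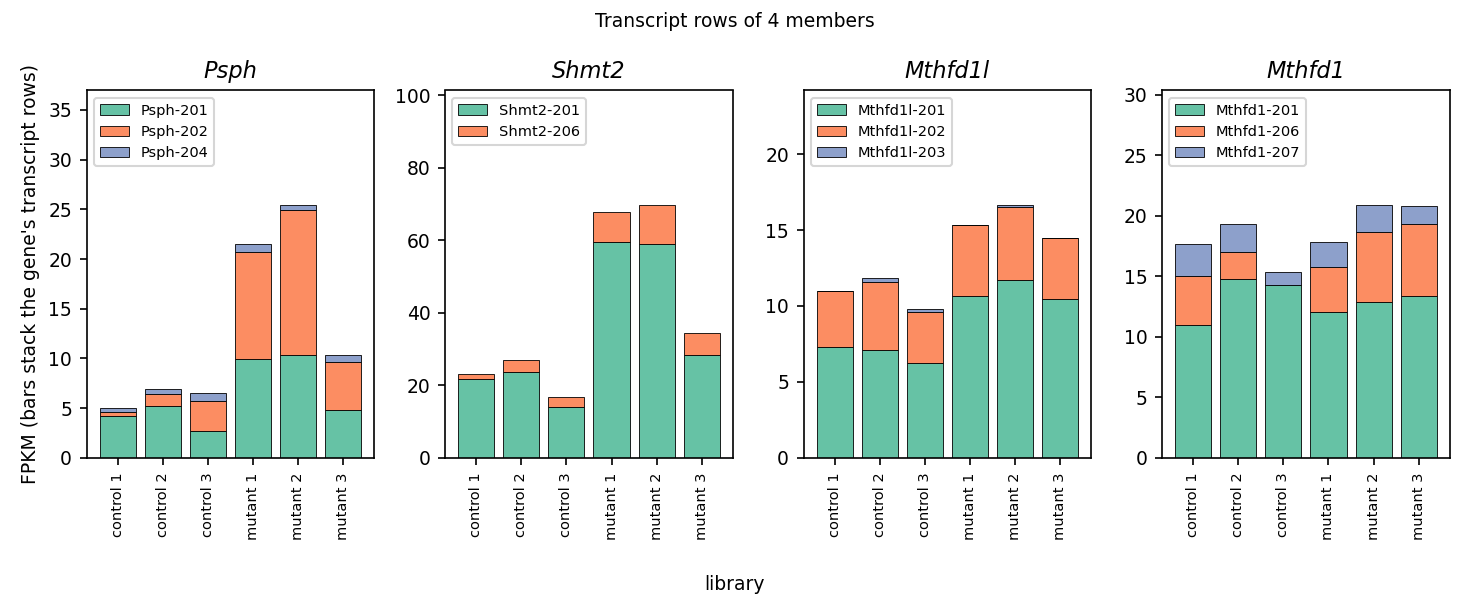
FPKM of the transcript rows of Psph, Shmt2, Mthfd1l and Mthfd1 in each library, stacked so that the bar height is the gene's sum. Psph-202 grows from 24.7% of the gene in controls to 52.6% in mutants, and Mthfd1-201 is similar in all libraries, between 11.0 and 14.7 FPKM.

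The remaining genes of serine, folate and one-carbon metabolism were examined to see how far the difference extended. Of 45 such genes, 37 passed the filter, 16 of them higher and 21 lower in mutants, with a median log2 difference of -0.02. The genes below the filter were Dmgdh, Folr2, Aldh1l1, Bhmt, Bhmt2, Mat1a, Gnmt and Sds. In limma, 4 of the 37 were higher and 3 lower at an unadjusted p under 0.05, where 5.57% and 9.43% of all genes were, and 0 had an adjusted p under 0.05. Without mutant replicate 3, 6 passed the unadjusted threshold.

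Among 11 other mitochondrial folate and glycine genes, 2 were higher and 1 lower at the unadjusted threshold. Slc25a32, which encodes the mitochondrial folate carrier, was at 1.49, 0 and 0 FPKM in controls and at 1.57, 1.88 and 1.74 FPKM in mutants, with an adjusted p of 0.228. It is listed at 0 in control replicates 2 and 3, so no fold is given. It reached 1 FPKM in 1 control and in all 3 mutant libraries, so it met the filter through the group where it was higher, and nothing is read from its count among the higher genes. The same holds for the adjusted p of 0.0458 without control replicate 1, where every remaining control is at 0. Sfxn1, a mitochondrial serine carrier, was at 13.2 ± 2.66 FPKM in controls and 16.6 ± 0.771 FPKM in mutants (SD, n = 3 each), a log2 difference of 0.32 (standard error 0.13, adjusted p = 0.301), and the groups overlapped. Its relative Sfxn3 went the other way, from 6.54 ± 0.816 to 5.18 ± 0.461 FPKM, a log2 difference of -0.29 (standard error 0.11, adjusted p = 0.301). The glycine cleavage genes Gldc, Amt, Gcsh and Dld, which break down the glycine formed by Shmt2, had log2 differences between -0.16 and 0.05 and overlapped between the groups. Dld, shared with other mitochondrial dehydrogenase complexes and the most abundant of the list, was at 75.8 ± 5.39 and 78.7 ± 7.79 FPKM (SD, n = 3 each).

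Among 7 genes of folate uptake, storage and reduction, 1 was higher at the unadjusted threshold. This was Slc19a1, the reduced folate carrier, at 2.90 ± 0.456 FPKM in controls and 4.12 ± 0.664 FPKM in mutants (SD, n = 3 each), a log2 difference of 0.39 (standard error 0.14, adjusted p = 0.260). With only the most abundant transcript row per gene its log2 difference was -0.10, so its direction depends on the rows counted. Qdpr, a pteridine reductase and the most abundant of the list, differed by -0.07 (standard error 0.09, adjusted p = 0.775).

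Among other cytosolic folate genes, Ftcd, an enzyme of histidine breakdown, was at 1.60, 1.26 and 1.02 FPKM in controls and at 0.488, 0.622 and 0.494 FPKM in mutants, a log2 difference of -0.57 (standard error 0.15, adjusted p = 0.166). Ftcd passed the filter only through the control libraries, where it was higher, so it could be tested only as a gene lower in mutants. Tyms, the thymidylate synthase, was the most abundant of the list and differed by 0.14 (standard error 0.12, adjusted p = 0.621).

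Genes that use the carbon showed small differences. Of 8 purine synthesis genes, 6 were higher and 2 lower, and only Prps2, which makes the ribose donor, passed the unadjusted threshold, at 14.2 ± 1.01 FPKM in controls and 10.8 ± 1.47 FPKM in mutants (SD, n = 3 each), a log2 difference of -0.37 (standard error 0.11, adjusted p = 0.207). Paics, the most abundant of them, differed by 0.10 (standard error 0.15, adjusted p = 0.793). None of 5 methionine cycle genes or 2 serine breakdown genes passed the unadjusted threshold, with Ahcy at 0.16 (standard error 0.10, adjusted p = 0.501) and Srr at -0.15 (standard error 0.20, adjusted p = 0.766).

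**Figure D5:**
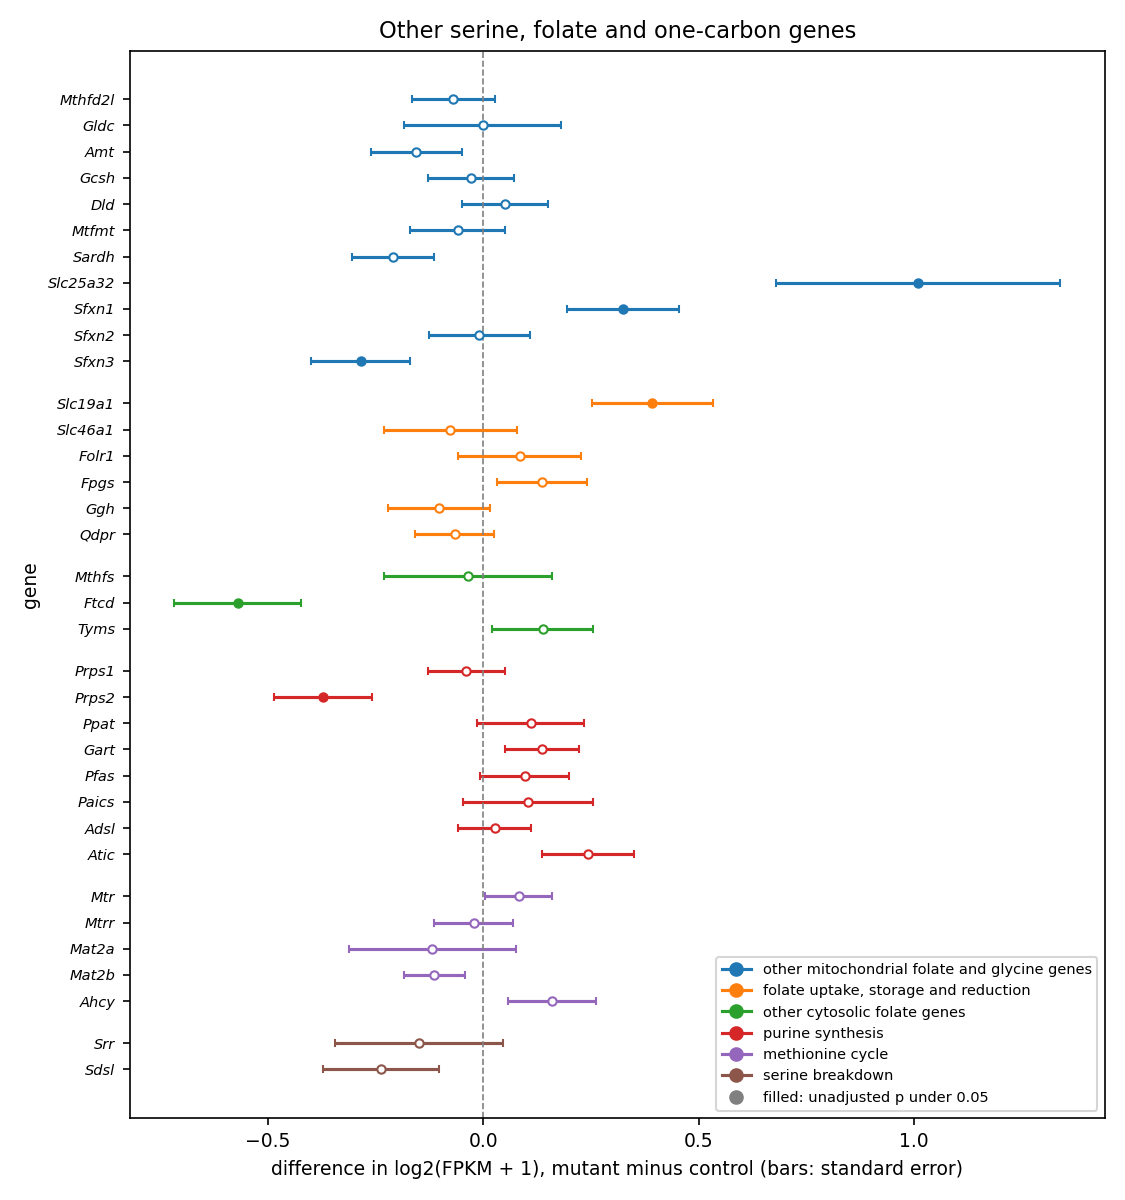
Mutant minus control difference in log2(FPKM + 1) with standard errors for 35 of the 37 other genes of serine, folate and one-carbon metabolism that passed the filter, coloured by list, with filled points at an unadjusted p under 0.05. The genes lie on both sides of 0, with 15 higher and 20 lower, and the glycine cleavage genes lie between -0.16 and 0.05.

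The genes whose pattern over the 6 libraries was most like that of Mthfd2 were taken from 9032 genes other than the members whose mean FPKM was 5 or more, by Pearson's r of log2(FPKM + 1). The first 5 were Mars (r = 0.998) and Aars (r = 0.997), which encode cytosolic methionyl- and alanyl-tRNA synthetases, Aldh18a1 (r = 0.996), an enzyme of proline synthesis, and Atf5 (r = 0.996) and Atf4 (r = 0.996), which encode transcription factors of the amino acid and unfolded protein responses. A further 7 of the 9032 genes had an r over 0.99. Mars was at 16.6, 18.6 and 17.1 FPKM in controls and at 31.0, 30.3 and 25.4 FPKM in mutants. Atf5 was at 5.85, 6.59 and 5.50 FPKM in controls and at 32.8, 30.4 and 14.6 FPKM in mutants. Atf4 was at 52.5, 58.1 and 57.5 FPKM in controls and at 152, 137 and 103 FPKM in mutants. Since these genes were picked for their likeness to Mthfd2 over the same libraries, a like order of the libraries follows from the choice.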

How the data were processed

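Total RNA of embryonic hearts was depleted of ribosomal RNA and made into strand-specific libraries, per the labels. The authors deposited 1 table of FPKM values with 1 value per transcript and library, 60776 rows in all. The submitters' processing notes name Bowtie2 2.2.8, HISAT2, StringTie 1.3.1, Cuffdiff 2.1.1 and the build mm9, without their roles. Of 57676 Ensembl transcript rows, 57382 are in GENCODE M21, a release for a later build, so no coordinates were taken from the table. FPKM of a gene's rows were summed and 1 was added before log2. Of the 13260 genes that had 1 FPKM or more in no fewer than 3 of the 6 libraries, 1990 had an unadjusted p under 0.05 (739 higher, 1251 lower in mutants) and 11 an adjusted p under 0.05 in limma 3.58.1 (R 4.3.3; lmFit, eBayes with trend, group as the term, two-sided, Benjamini-Hochberg adjustment over all genes). The limma steps were tested on simulated data. FPKM summed to between 454692 and 515952 per library, log2 values correlated at 0.979 to 0.986 within and 0.972 to 0.980 between groups, and read depth is unknown.

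Members, gene lists and tests were chosen with earlier results of these data known. Named were all members, Mrps5, Atf4, in each list of other one-carbon genes those with an unadjusted p under 0.05 and the one with the highest mean FPKM, and the 5 genes most like Mthfd2. Exceptions are marked in the text, and some genes of these lists, although counted, are not reported here. Replicates are separate pools of hearts by the study's methods, and p-values measure the spread between these pools.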

Additional observations from a re-analysis of the deposited data

How the results depend on the processing

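The 9 member differences were recomputed with 0.1 added in place of 1, without the filter, with a mean FPKM of at least 5, with the most abundant transcript row per gene, with median centring, with erythroid genes left out of the scaling, with a block for the replicate number and without each library. The mitochondrial minus cytosolic difference stayed between 0.95 and 1.42. The median of the 9 differences was 0.86 with the most abundant row and 1.10 to 1.61 on leaving out a library, highest without mutant replicate 3. With the most abundant row, Mthfd1 (-0.049), Slc19a1 (-0.10), Paics (-0.15) and Srr (0.064) changed sign. On leaving out a library, the ranges of Dld (-0.026 to 0.11), Paics (-0.021 to 0.26) and Srr (-0.32 to 0.015) crossed 0. The 11 genes with an adjusted p under 0.05 became 6 without the filter, 4 with the most abundant row and 5 to 270 on leaving out a library, with 121 without mutant replicate 2 and 270 without mutant replicate 3. The 1990 genes with an unadjusted p under 0.05 became 1314 at a mean FPKM of at least 5 and 1216 to 2167 on leaving out a library, lowest without control replicate 1. The 7 other one-carbon genes became 4 at a mean FPKM of at least 5, 4 with the most abundant row and 3 to 8 on leaving out a library, lowest without control replicate 3. The cause of these changes was not tested, beyond the smaller number of genes or libraries in some. Slc25a32 is listed at 0 in control replicates 2 and 3, so the size of its log2 difference depends on the added constant. It was 2.86 with 0.1 added, against 1.01, and is not read as a fold. Its adjusted p in limma was 0.210 to 0.426 under the alternatives other than leaving out control replicate 1. That one gave 0.0458 against controls all listed at 0, for a gene that met the filter through the mutant libraries, and nothing is read from it. Slc25a32, Slc19a1 and Ftcd fell below the filter at a mean FPKM of at least 5, and Ftcd also with erythroid genes left out of the scaling, so no value was had there.

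Libraries of the groups share replicate numbers, and deviations from the group means correlated at 0.217, 0.110 and 0.090 for numbers 1, 2 and 3, so the numbers were not taken as pairs, although each control library correlated best with its own number, a hint from the data and not the design. With the number as a block, 4 genes had an adjusted p under 0.05, 2221 an unadjusted p under 0.05, and 8 of the other one-carbon genes an unadjusted p under 0.05. Since read depth is unknown, no counting error can be given for low genes such as Slc25a32 and Ftcd.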
